A study of Homo sapiens with 6 samples.

Results

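The replication-dependent core histone genes are the clustered genes that encode H2A, H2B, H3 and H4, the proteins around which DNA is wound in a nucleosome. They were taken from the deposited protein-coding gene counts as every gene whose symbol is H2AC, H2BC, H3C or H4C followed by a number. This gave 61 of 19986 genes: 15 for H2A, 18 for H2B, 13 for H3 and 15 for H4. By the coordinates in the count table (GRCh38), 49 lie on chromosome 6, 11 on chromosome 1 and 1 on chromosome 12. H2AC18 and H2AC19 were not analysed here.

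The counts come from 6 RNA libraries of HEK293T, a human line of transformed kidney cells from an embryo. In 3 libraries, labelled CRISPRa, the cells had received dCas9-VP64, rtTA and a guide RNA against SVA_D, a subfamily of hominid-specific retrotransposons. In the other 3, labelled WT, they had received dCas9-VP64 and rtTA without a guide, so the activator was present in both groups. dCas9-VP64 is a Cas9 protein that cannot cut, joined to an activation domain, and SunTag in every sample title names a peptide array that recruits several activators. Whether replicates were separate cultures is not in the labels, and p-values below therefore reflect library-to-library spread that may be technical. The comparison asked whether RNA from these genes differed between cells with and without the guide.

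In dividing cells, replication-dependent histone genes are switched on for S phase and supply the histones that package newly made DNA. Their transcripts are short, usually lack introns, and end in a stem-loop in place of a poly(A) tail. SLBP binds that stem-loop, while NPAT gathers with the gene clusters in histone locus bodies and supports their transcription. Many of the clustered genes encode the same or nearly the same protein, and H2A and H2B genes often sit head to head, sharing a short region between their start sites. Some of them are also known to give longer transcripts with poly(A) tails. The labels' protocol starts from total RNA and names neither poly(A) selection nor removal of ribosomal RNA, so which transcript ends the libraries captured is not given in the sources used here.

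The 3′ stem-loop is shown because it is the feature that sets these transcripts apart. It was found in the annotated transcripts (GENCODE release 29, GRCh38) of 29 members, at 22 to 56 bases after the stop codon. Capitals mark the 6 bases of each arm of the stem, and lower case the 4 bases of the loop. The main form was shared by 15 genes of the H2A, H2B and H3 classes, H2AC25 and H2BC6 among them. Another form was read in 4 genes (H2BC4, H2BC5, H2BC7 and H3C8). Among these 29, the stems below with GGCCCT were read in H4 genes: 5 with 1 loop (H4C2, H4C5, H4C8, H4C11 and H4C16) and 3 with the other (H4C9, H4C14 and H4C15).
H2A, H2B and H3 genes, main form: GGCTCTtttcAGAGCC
H2BC4, H2BC5, H2BC7 and H3C8: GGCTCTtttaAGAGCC
H3C6: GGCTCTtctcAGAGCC
H2AC11, with 1 pair of the stem that is not Watson-Crick: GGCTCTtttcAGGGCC
H4C2, H4C5, H4C8, H4C11 and H4C16: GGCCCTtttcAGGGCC
H4C9, H4C14 and H4C15: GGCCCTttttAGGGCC

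The promoters of the 3 members with the most counts are shown because these genes hold most of what was measured. They are the 250 bases before the RefSeq start site (GRCh38.p14), on the strand of the gene, written 5′ to 3′. Capitals mark matches on either strand to the TATA box, searched as TATAAA, to the CCAAT box, searched by those letters, and to the octamer, searched as ATTTGCAT. Matches may overlap. H2BC12 lies on the minus strand, with its promoter at chr6:27146856-27147105. H2AC25 is also on the minus strand, with its promoter at chr1:228457874-228458123. H4C9 is on the plus strand, with its promoter at chr6:27139032-27139281. This window lies inside the counted span of H4C9, which begins at 27138588, so the RefSeq start and the start of the counted gene differ.
H2BC12: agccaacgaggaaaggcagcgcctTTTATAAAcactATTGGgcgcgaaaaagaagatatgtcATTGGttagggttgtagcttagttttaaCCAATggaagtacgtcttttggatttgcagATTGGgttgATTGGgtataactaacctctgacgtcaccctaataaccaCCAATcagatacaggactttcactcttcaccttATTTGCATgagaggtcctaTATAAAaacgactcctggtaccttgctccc
H2AC25: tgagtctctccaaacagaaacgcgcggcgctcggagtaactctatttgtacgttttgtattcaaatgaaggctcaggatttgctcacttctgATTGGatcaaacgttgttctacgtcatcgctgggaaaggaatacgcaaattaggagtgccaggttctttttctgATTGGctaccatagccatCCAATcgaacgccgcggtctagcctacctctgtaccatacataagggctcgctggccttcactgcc
H4C9: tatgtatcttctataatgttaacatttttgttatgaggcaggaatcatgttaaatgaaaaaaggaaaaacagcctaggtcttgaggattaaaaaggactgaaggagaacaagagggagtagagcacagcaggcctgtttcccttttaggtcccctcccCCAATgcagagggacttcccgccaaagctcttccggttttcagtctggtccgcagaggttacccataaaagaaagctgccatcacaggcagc
The H2BC12 window holds the octamer 49 bases and a TATA box 30 bases before the start, counted from the first base of each match. In the H2AC25 window a CCAAT box begins 66 bases before the start, and neither TATAAA nor ATTTGCAT was read. The H4C9 window holds a CCAAT box 92 bases before the start and no match to the other motifs.

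Promoters in the RefSeq set were matched for 56 members, each 250 bases before to 50 bases after the start, and both strands were searched. TATAAA was in 67.9% of the member promoters and in 11.5% of all 35116 promoters. CCAAT was in 82.1% of the members against 34.6% of all, and it split the classes: every H2A, H2B and H3 promoter held it, but only 3 of 13 for H4. The octamer was in 44.6% of the members against 1.77% of all promoters. Its matches were in 11 of 14 H2A and 14 of 18 H2B promoters, and in 0 of 11 for H3 and 0 of 13 for H4. The windows of head-to-head H2A and H2B genes overlap, so a single match can be counted for both genes of a pair. Between the members with enough counts to be tested and those at 0, the shares were 65.2% and 56.2% for TATAAA, 87.0% and 93.8% for CCAAT and 47.8% and 43.8% for the octamer, with no test. Some of the members at 0 lie under other genes, where counts could not be seen.

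Counts of these genes were few and uneven. All 61 together held 22135 of the counts in the 6 libraries, between 2958 and 4340 per library, while gene totals ran from 16557854 to 22651168. The median member had 19 counts summed over the 6 libraries, against 830.5 for all genes. H2BC12 alone held 6713 counts and H2AC25 held 5971, together 57.3% of all counts of these genes, and with the 1828 of H4C9 they held 65.6%. By class, H2B had 50.2% of the counts, H2A 33.3%, H4 11.2% and H3 5.33%.

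A group of 16 members had 0 counts in every library, which is 26.2% of them against 15.6% of all genes (3111). They are H2AC1, H2AC7, H2AC14, H2AC15, H2AC16 and H2AC17 for H2A, H2BC1 and H2BC10 for H2B, H3C3, H3C4, H3C8, H3C14 and H3C15 for H3, and H4C6, H4C7 and H4C13 for H4. H2BC1 and H2AC1 are known as testis genes, and they form a head-to-head pair. A count of 0 allows up to 3 counts, or 0.128 to 0.187 CPM (counts scaled to a library size of 1000000), depending on the library, and this covers counting error only. Another 21 members had between 1 and 53 counts in all, too few to be tested. The remaining 24 passed the filter on low counts, which is 39.3% of the members against 65.1% of all genes, and the lowest of them had 63 counts. Of these, 11 were H2B, 5 H2A, 4 H3 and 4 H4 genes.

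Counting rules bear on these zeros, because a read pair was not counted if it lay over more than 1 gene or aligned to more than 1 place. Over the whole table, 1232 genes lie wholly under other genes of the table, and 1232 of them had 0 counts, CDK2, ASF1A and HAT1 among them. Of the 13357 genes that overlap no other, 11.01% had 0 counts. Among the histone genes, H2AC7, H2AC15, H2AC16 and H3C4 lay wholly under another gene, H2AC17 lay under another over 89.1% of its length, and all 5 were at 0. H2AC15 and H2AC16 lie within the annotated span of H2BC15, and most of H2AC17 within that of H3C12. The zeros of these genes say nothing about their expression.

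Near-identical copies were the other place where counts could be lost. Members were cut into windows of 100 bases, and a window was called shared if the same 100 bases occur in a transcript of another gene. In 12 members more than 50% of the windows were shared: 6 of them were at 0, and H2AC13, with 78 counts, was the only member of this set to be tested. Of those at 0, H2AC7, H2AC17 and H3C4 are among the members named above as lying under another gene. H2AC7 and H3C4 shared windows only with AL031777.3, and H2AC17 only with H3C12, whose span covers most of it. Their zeros are therefore no measure of loss to near-identical copies. In 40 members no window was shared, and 10 of these were at 0. Of these 40 members, 37 also had no gene lying over them, and 8 of the 37 had 0 counts: H2AC1, H2BC1, H2BC10, H3C3, H3C8, H4C6, H4C7 and H4C13. H3C14 and H3C15, whose coding sequences are identical, had 0 counts each. H4C14 and H4C15 are identical too and had 40 counts and 1 count, and H4C11 and H4C12 had 6 and 1. These members cannot be told apart where their reads are the same, so their values are uncertain.

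The first 90 bases of the coding sequences of H2BC12 and H2BC6, each the other's nearest copy among the 61 members, show what separates members of a class. Capitals mark the 8 mismatches in this stretch. Over the 378 coding bases there are 23 mismatches, and the longest identical run is 80 bases.
H2BC12: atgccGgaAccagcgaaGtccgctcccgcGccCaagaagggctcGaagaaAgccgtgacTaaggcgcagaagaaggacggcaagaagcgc
H2BC6: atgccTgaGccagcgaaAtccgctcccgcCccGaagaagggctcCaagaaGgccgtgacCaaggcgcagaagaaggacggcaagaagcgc
H2BC12 also shared 28.4% of its windows with 1 other gene, an H2B gene named H2BFS in the annotation, so part of its reads may not have been counted.

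Counts differed with where the annotated gene ends. In GENCODE release 29, 30 members have an annotated end at the stop codon, so their stem-loop lies outside the annotated gene. Of these, 13 were at 0, 5 were tested, and the median was 2.5 counts. In 23 members the annotation runs more than 100 bases past the stem-loop: 3 were at 0, 16 were tested, and the median was 204 counts. The 6 members that end within 100 bases of the stem-loop had a median of 18.5 counts, with 2 tested. H2BC11 and H4C3, with annotated ends past the stop codon and no stem-loop found, had 473 and 53 counts. Without the 5 members that lie mostly under other genes, the group that ends at the stop codon had 8 of 25 at 0 and a median of 7 counts. H2BC12 went against this order, with the most counts of any member and an annotated end at the stop codon. The limit of 100 bases was chosen after the values were seen, and longer genes offer more bases on which a pair can be counted, whose part in the order was not tested.

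**Figure D1:**
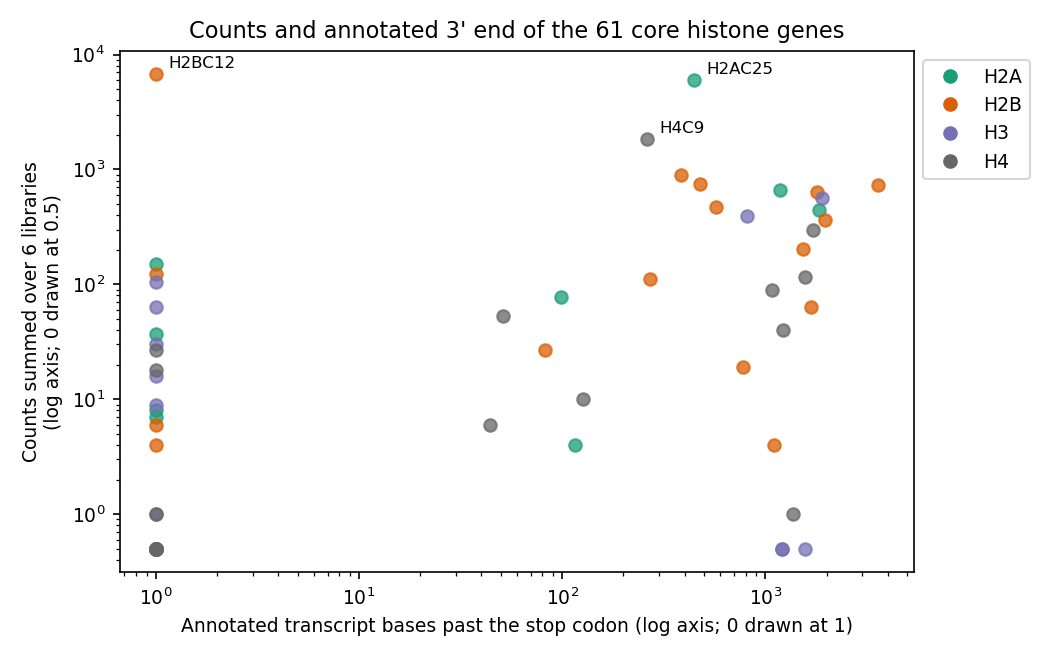
Counts summed over the 6 libraries (vertical log axis, 0 drawn at 0.5) against the annotated transcript bases past the stop codon (horizontal log axis, 0 drawn at 1), with 1 point per gene, coloured by class. Most genes with over 200 counts lie to the right, and H2BC12, with 6713 counts, stands at the left edge.

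Per kilobase of gene length, a scale that depends on the annotated span, the highest members stood well apart. The span of H2BC12 ends at the stop codon, so any transcript bases past it are missing from its divisor. The span of H4C9 begins before its RefSeq start, so its divisor includes bases ahead of that start. H2BC12 (chr6:27146418-27146798, minus strand, 1 exon) was at 145 ± 27.1 CPM per kilobase, H2AC25 (chr1:228456979-228457873, minus strand, 1 exon) at 57.2 ± 17.9, and H4C9 (chr6:27138588-27139881, plus strand, 1 exon) at 11.8 ± 1.52 (SD, n = 6). The ranges of these genes over the 6 libraries did not overlap on this scale. The next levels were far lower and close together: H2AC20 was at 3.30 ± 1.46, H2BC17 at 2.64 ± 0.8004, H3C10 at 2.63 ± 0.385 and H2BC21 at 2.41 ± 0.377 (SD, n = 6), which do not differ beyond their spread. H3C2 at 1.73 ± 0.629, H2AC11 at 1.61 ± 0.411 and H3C6 at 1.40 ± 0.299 followed (SD, n = 6). After H4C9, the highest H4 genes were H4C3 at 1.05 ± 0.680 and H4C4 at 0.713 ± 0.312, with too few counts to be tested. Some genes have annotated introns and spans of many kilobases, and their levels depend on the length used: H2BC5 was at 0.572 CPM per kilobase of gene and 9.57 per kilobase of its longest transcript.

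Outside the clusters, some histone genes that are not tied to S phase were above H2BC12 per kilobase of gene and others below. H2AZ1, an H2A variant made throughout the cell cycle, was at 327 CPM per kilobase, and H1-10, a replication-independent linker histone, at 236. H2AX, the H2A variant marked at DNA breaks, was at 100.3 CPM per kilobase. The H3.3 genes H3-3B and H3-3A were at 62.0 and 7.92, and H2AZ2 was at 8.16. The divisor is the whole gene span, introns included, so a gene with introns can stand lower on this scale than H2BC12, which has none. Levels per kilobase of transcript were not computed for these genes, so the order does not rank their RNA. Summed over 19 replacement histone genes and not scaled for length, the level was 2080 ± 162 CPM (SD, n = 3) with the guide and 2177 ± 153 CPM (SD, n = 3) in its absence. All 61 core genes together came to 181 ± 13.2 CPM (SD, n = 3) with the guide and 189.6 ± 14.7 CPM (SD, n = 3) in its absence.

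With the guide, H2BC12 was at 42.0, 50.2 and 66.0 CPM in replicates 1, 2 and 3, and without it at 50.4, 54.1 and 69.0 CPM. In each group replicate 3 was highest, and the groups overlapped. Within each replicate number the guide library of H2BC12 was the lower one, a pattern whose share over all tested genes was not computed. With the replicate block the log2 fold change of H2BC12 was -0.14 (SE 0.09, adjusted p = 0.9997, edgeR). H2AC25 was at 52.9, 58.8 and 35.5 CPM with the guide, against 69.7, 62.0 and 28.6 CPM without, and here replicate 3 was the lowest of each group. H4C9, the leading H4 gene, was at 12.3, 13.9 and 17.6 CPM with the guide, against 16.3, 16.6 and 14.6 CPM without, again overlapping. The levels of these members differed more between replicates than between the groups.

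No core histone gene passed the test between guide and no guide: 0 of 24 tested members were called, against 0% of all 13007 genes tested (edgeR quasi-likelihood test, adjusted p under 0.05). At an unadjusted p under 0.05 the same test gave 0 members, and 19 genes higher and 4 lower over the whole table. DESeq2, limma-voom and edgeR with the replicate number as a block also called 0 members. The main fit held no batch term, so differences between batches A and B entered its SEs and p-values. The spread common to all genes (dispersion) was 0.061 without the batch and 0.0070 with it in the model. With the batch in the model, 0 members were called too. The median log2 fold change of the tested members was 0.01, and that of all tested genes 0.00. The members ran from -0.64 (SE 0.49) for H2BC9 to 0.85 (SE 0.57) for H4C5, with an adjusted p of 0.99998 for each (edgeR). Leaving out 1 library at a time moved H2BC9 between -1.001 and -0.38 and H4C5 between 0.29 and 1.39.

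H4C5, an H4 gene of the large chromosome 6 cluster, was at 0.587, 0.685 and 1.501 CPM with the guide, against 0.286, 0.428 and 0.813 CPM without. The groups overlapped, but within each replicate number the guide library was higher. With the batch in the model it was the only member with an unadjusted p under 0.05 (0.0399, adjusted p = 0.997, edgeR), where 347 genes of all were higher and 140 lower at that p. H4C8 was at 2.40, 3.18 and 2.78 CPM with the guide, against 2.10, 2.26 and 2.31 CPM without. Each guide library of H4C8 was above each library without the guide, a pattern seen in 1 of 24 tested members and in 1.69% of all tested genes. The opposite pattern was seen in 0 members and in 1.15% of all tested genes. The log2 fold change of H4C8 was 0.32 (SE 0.28, adjusted p = 0.99998, edgeR). On the lower side H2BC9 was at 0.392, 0.623 and 0.265 CPM with the guide, against 0.763, 0.795 and 0.428 CPM without. The groups overlapped, and within each replicate number the guide library was lower. H2BC21 was at 6.27, 5.42 and 5.56 CPM with the guide, against 5.77, 4.83 and 3.90 CPM without. It was higher with the guide within each number and overlapped between the groups. The share of all tested genes with the same direction in each number was not computed. Replicates 1 and 2 could not be told apart as pairs, so agreement within replicate numbers cannot be read as agreement of separate pairs. None of these genes passed the guide test, and the cause of these patterns was not tested.

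Summed by class, the values were also close. H2A genes came to 59.9 ± 11.2 CPM with the guide against 65.7 ± 21.6 CPM in the other group (SD, n = 3). H2B genes came to 89.8 ± 16.5 and 93.9 ± 7.48 CPM, H3 genes to 9.99 ± 2.37 and 9.40 ± 0.518 CPM, and H4 genes to 20.9 ± 3.35 and 20.6 ± 0.812 CPM (SD, n = 3 per group). In all 4 classes the difference between the means was smaller than the larger SD. With replicates 1 and 2 alone, each class was lower with the guide, by log2 ratios of -0.24 for H2A, -0.15 for H2B, -0.08 for H3 and -0.12 for H4. In replicate 3 each was higher, by 0.20, 0.07, 0.36 and 0.29, so the replicates went opposite ways.

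The members nearest to the targeted repeats did not stand out. A copy of SVA_D on chromosome 6 (chr6:27826626-27828514, minus strand) lies within 50 kb of 12 members, and 4 of these are within 10 kb, the closest being H4C11 at 2518 bases. The copy itself had 7, 3 and 10 counts with the guide and 3, 3 and 16 without it. The tested members within 50 kb were H2BC15, with a guide fold change of 0.14 (SE 0.41) on the log2 scale, H3C10 with -0.08 (SE 0.29) and H2AC13 with 0.16 (SE 0.50), each with an adjusted p of 0.99998 (edgeR). With the batch in the model these genes were at 0.11 (SE 0.16), -0.07 (SE 0.21) and 0.17 (SE 0.41), with an adjusted p of 0.997 for each (edgeR). A further 46 members lie more than 500 kb from any copy.

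Replicate 3 of both groups stood apart. The file headers name its alignments by another scheme than those of replicates 1 and 2, and these are called batch B and batch A here; what else differed is not given in the sources used here. The first principal component of all genes, with 74.7% of the variance, separated the batches. In an edgeR fit with the group in the model, 4 members were higher and 3 lower in batch B, of 24 tested. Over all genes, 27.1% were higher and 26.6% lower, so 53.7% differed either way, a larger share than among the tested members. The shares were not matched for counts, and some tested members had few, such as 63 for H2BC9. They therefore do not show that the histone genes differed less between batches. Without TMM scaling, 6 members were higher and 3 lower, and the split over all genes moved to 40.9% higher and 13.5% lower, 54.4% either way, with the median of all genes at 0.20 in place of 0.01.

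The members that rose in batch B were H2BC15, H2BC11, H2BC12 and H4C5. H2BC15 was at 9.45 and 7.83 CPM in the batch B libraries (guide, then no guide) and between 3.97 and 4.86 CPM in batch A, a log2 fold change of 0.95 (SE 0.16, adjusted p = 0.000299, edgeR). H2BC11 was at 6.40 and 4.84 CPM against 2.61 to 3.06, a change of 0.94 (SE 0.19, adjusted p = 0.00110, edgeR). The counted spans of H2BC15 and H2BC11 are 28039 and 6854 bases, against 4137 and 950 for their longest annotated transcripts. Pairs were counted over the whole span without strand, so intronic or antisense pairs cannot be told apart in these values. H2BC12 rose by 0.46 (SE 0.09, adjusted p = 0.000893, edgeR). H4C5 rose by 1.23 (SE 0.37, adjusted p = 0.0132, edgeR), from 0.286 to 0.685 CPM in batch A to 1.501 and 0.813 CPM. In these genes every batch B library lay above every batch A library, as it did in H2AC11 and H2AC13, which were not called. The share of all tested genes with this pattern was not computed.

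The members that fell were the H2A genes H2AC25 and H2AC20 and the H2B gene H2BC26. H2AC25 fell by 0.92 on the log2 scale (SE 0.12, adjusted p = 3.65e-05, edgeR), the smallest p of any member. H2AC20 was at 0.883 and 0.556 CPM in batch B against 1.27 to 2.24 CPM in batch A, and fell by 1.13 on the log2 scale (SE 0.38, adjusted p = 0.0221, edgeR). H2BC26 was at 2.56 and 1.41 CPM against 2.84 to 3.98 CPM, and fell by 0.89 on the log2 scale (SE 0.27, adjusted p = 0.0143, edgeR). As a class, H2A was at 72.1 CPM in batch A and 44.3 CPM in batch B, a log2 ratio of -0.70. Without H2AC25 the H2A ratio was 0.12, so the sum followed that gene.

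Some of these calls rested on single libraries. Without the guide library of replicate 3, H4C5 and H2BC11 no longer passed, at 1.203 and 0.70 on the log2 scale (adjusted p = 0.141 and 0.0560, edgeR). Without the no-guide library of replicate 3, H2AC20, H2BC26 and H4C5 no longer passed, at -0.61, -0.40 and 1.24 (adjusted p = 0.348, 0.332 and 0.0648, edgeR), which left 1 member lower. Without the guide library of replicate 3, H2AC20 and H2BC26 were at -1.70 and -1.48. H4C5 thus kept its size where its call was lost, between 1.13 and 1.30 over the 6 libraries left out in turn, while H2AC20 and H2BC26 moved by more than 1.5 times. H2AC20 also missed the threshold without the no-guide library of replicate 1 (-0.88, adjusted p = 0.0716, edgeR), and H4C5 with DESeq2 (adjusted p = 0.0662). H2AC25, H2BC12 and H2BC15 passed in each of the 11 alternatives run.

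**Figure D2:**
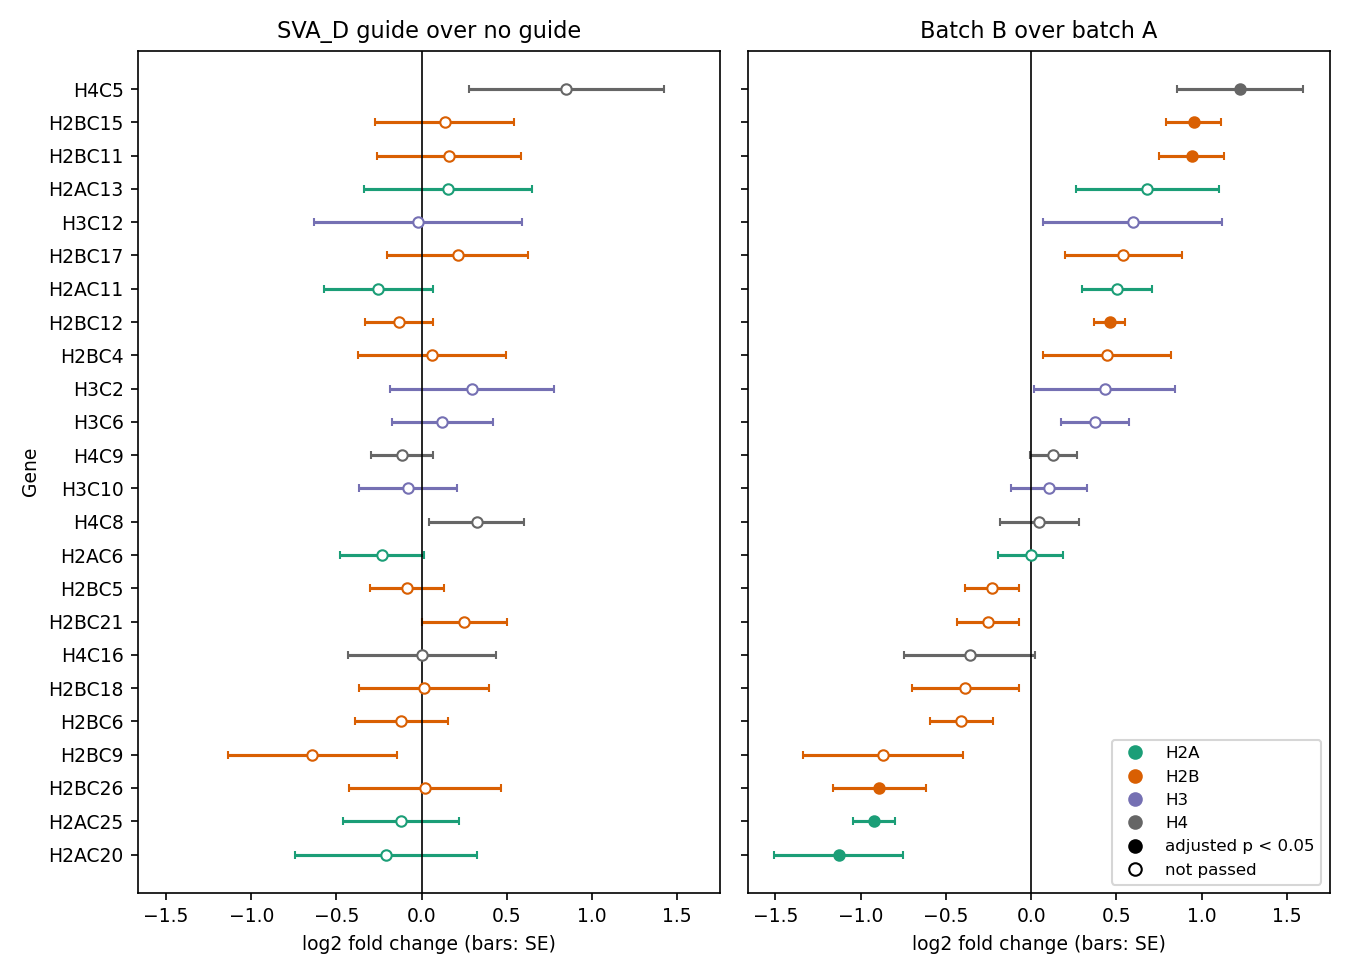
Log2 fold change of the 24 tested genes for guide over no guide (left) and batch B over batch A (right), with bars for the SE and colours for the class. Points are open on the left without exception, and 7 are filled on the right, from -1.13 for H2AC20 to 1.23 for H4C5.

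The guide difference was also compared between the batches. No member was called for it (0 of 24, against 0% of all tested genes, edgeR with 2 residual degrees of freedom). At an unadjusted p under 0.05 there were 3 members, H2AC25, H2BC26 and H4C9, each lower with the guide in batch A and higher in batch B, where each group is a single library. Over all genes, 524 and 508 passed that p in the 2 directions. For H2BC26 the guide log2 ratios were -0.21 within batch A and 0.86 within batch B; for H4C9 they were -0.33 and 0.27.

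Head-to-head H2A and H2B genes share the region between their start sites, and 11 such pairs lay within 500 bases of each other, at 219 to 331 bases. H2BC12 and its partner H2AC12 were the most uneven, with 6713 counts against 37, a ratio of 181 (95% interval 131 to 258, exact binomial, counting error only). H2AC25 and H2BC26 leaned the other way, with 5971 counts against 360, a ratio of 16.6 (14.9 to 18.5). Both genes of this pair fell in batch B. In the pair H2AC11 and H2BC11 the counts were nearly equal, at 443 and 473 (ratio 1.07, interval 0.936 to 1.22), and here only H2BC11 passed in batch B, H2AC11 being at 0.50 (SE 0.21, adjusted p = 0.0522, edgeR). H2BC21 had 632 counts to 151 for H2AC20, and H2AC6 had 668 to 111 for H2BC4. H2BC21, H2AC6 and H2BC4 did not pass between batches, at -0.25 (SE 0.18), 0.00 (SE 0.19) and 0.45 (SE 0.38). In all, the H2B gene had more counts in 6 pairs and the H2A gene in 3, 1 pair was tied at 4 counts each and 1 was at 0, as counts that are not scaled for gene length. In 3 of those 6 the H2A gene was at 0 (H2AC7, H2AC14 and H2AC17): H2AC7 and H2AC17 lie under other genes, and 80.9% of the windows of H2AC14 are shared. The other 3 stand against 3 with more counts for H2A.

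Other genes of histone supply were read from lists. None of the 9 lists had a member called between guide and no guide, as for all genes. Between batches, 3 of the 4 tested linker histone genes rose and 0 fell: H1-10 by 0.60 (SE 0.09), H1-2 by 0.48 (SE 0.12) and H1-4 by 1.47 (SE 0.40). Of 23 tested factors that act on histone genes and their RNA, 4 rose and 9 fell, with a median of -0.17. SLBP fell by 0.22 (SE 0.08, adjusted p = 0.0380, edgeR), while NPAT at -0.17 (SE 0.10) and CASP8AP2, a partner of NPAT in histone locus bodies, at -0.09 (SE 0.10) did not pass. LSM10 and LSM11, subunits of the U7 particle that cuts histone RNA, went opposite ways, at 0.57 (SE 0.11) and -0.43 (SE 0.10), and both passed. Without TMM scaling SLBP was at -0.03 and LSM11 at -0.24, and neither passed (adjusted p = 0.810 and 0.0612, edgeR), while NPAT at 0.02 and CASP8AP2 at 0.11 were on the other side of 0. The same 23 factors then gave 5 higher and 3 lower, with a median of 0.03.

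Genes of DNA replication and of mitosis were read in the same batch fit, where 27.1% of all tested genes rose and 26.6% fell. No difference between the lists was tested. Of 44 tested replication genes, 2 rose and 20 fell, with a median of -0.18, and without TMM scaling 10 rose and 10 fell. Of 32 tested mitosis genes, 19 rose and 1 fell, with a median of 0.23, and without TMM scaling 24 rose and 0 fell. Histone chaperones, which carry histones to DNA, gave 1 higher and 10 lower of 20 tested. Without TMM scaling they gave 6 higher and 6 lower. Medians of these lists stood beside 0.01 for all tested genes and 0.12 for the core histone genes. In the guide comparison the medians were -0.01 for replication and -0.06 for mitosis genes.

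Markers of other cell types were higher in batch B as a sum, though few of them could be tested. Their summed level, over 10 genes of blood, fibroblast, endothelial, liver and heart cells, was 65.5 to 68.1 CPM in the batch A libraries, against 81.8 and 99.9 CPM in batch B. Of 3 tested, 1 was called: COL1A1, a collagen gene of fibroblasts, was at 2.65 CPM in batch A but 15.6 CPM in batch B. Without TMM scaling all 3 were called higher. NKX2-5 held most of the sum at 64.9 CPM, while PTPRC and CD3E, which define blood and T cells, had 4 counts and 1 count in all. All 10 markers of the labelled line were tested, and 5 rose and 4 fell in batch B, with a summed level of 2397 to 2811 CPM in batch A against 1595 and 1620 CPM in batch B. VIM, an intermediate filament gene, went from 1795 to 713 CPM, and without it the other 9 came to 775 CPM in batch A and 895 CPM in batch B on average. The part of these differences in the histone values was not tested, and fewer cells of a type and less RNA per cell cannot be told apart in such libraries.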

How the data were processed

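Per the labels, the series holds 6 RNA libraries, 3 for cells given the SVA_D guide and 3 for cells given none. The authors deposited raw counts per gene. Per the file headers they were made with featureCounts for read pairs over whole gene spans, without strand, on the protein-coding genes of Ensembl release 97 (GRCh38). Under these settings pairs that align to several places or lie over more than 1 gene are not counted, and a gene and its antisense partner cannot be told apart. The submitters' processing notes name FastQC 0.11.8, STAR 2.7.0e and featureCounts 2.0.0. Symbols were matched for 19887 identifiers.

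The main test was the quasi-likelihood test of edgeR 4.0.16 (R 4.3.3) on the counts of all genes, after filterByExpr with a minimum count of 10, TMM scaling and Benjamini-Hochberg adjustment over all 13007 tested genes. The guide fit held no batch term, as the labels give none; batch, replicate block, DESeq2 1.42.0, limma-voom (limma 3.58.1), no TMM, no count filter and leaving out each library were alternatives. CPM values use TMM-scaled library sizes. In simulated counts, edgeR recovered 98% of 50 genes raised 2-fold and 92% of 50 lowered as much for the guide comparison. For the batch comparison it recovered 92% and 88%. The simulated counts held no batch difference. Their spread between libraries (dispersion) was set below the 0.061 common to all genes in the real guide fit. Changed genes were drawn from all that passed the filter. These shares therefore do not measure what the guide comparison could find among the members. Replicate numbers were checked for pairing: deviations from the group means correlated at 0.51, 0.60 and 0.84 in same-numbered libraries (13007 genes), so the numbers were taken to pair the libraries. Within batch A, libraries of different numbers correlated as well (0.57 and 0.60), so the check shows the batch and does not tell replicates 1 and 2 apart.

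The members and lists were chosen with earlier results of these data known. Named members were the 3 highest per kilobase in each class, the 3 smallest p-values on each side of the guide fit, the called members of the batch fit, members in head-to-head pairs with both genes tested, and those at 0. Other members, such as H2AC12, H2BC5, H2BC6, H2AC13 and the identical copies, were named after their values were seen. Of the list members, 1 is not reported here.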

Additional observations from a re-analysis of the deposited data

How the results depend on the processing

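Called members stayed at 0 in the guide comparison in each alternative run. The replicate block changed no call there; its median member fold change was 0.01 on the log2 scale. With batch A alone the median was -0.11, H2BC17 was at -0.091, H3C2 at -0.060, H3C6 at -0.10, H2BC11 at -0.069, H2BC26 at -0.22 and H2BC4 at -0.33, each of the other sign than with all libraries. Leaving out 1 library at a time, the median guide change ran from -0.10 to 0.11. Signs turned for H2BC12 (-0.33 to 0.013), H2AC25 (-0.43 to 0.11), H2AC20 (-0.60 to 0.34), H2AC11 (-0.42 to 0.042), H2BC11 (-0.35 to 0.44), H2BC15 (-0.33 to 0.47), H2BC17 (-0.15 to 0.37), H2BC26 (-0.34 to 0.23), H2BC4 (-0.30 to 0.30), H3C10 (-0.21 to 0.068), H3C2 (-0.026 to 0.64) and H3C6 (-0.14 to 0.31). Between batches, the median was 0.31 without TMM scaling and 0.39 without the count filter. Without TMM scaling H2AC6 was at 0.19, and the summed classes gave -0.50 for H2A, 0.50 for H2B and 0.32 for H4. Leaving out 1 library at a time, the batch median ran from -0.062 to 0.23, the members lower from 1 to 4, and signs turned for H4C8 (-0.049 to 0.13), H2AC6 (-0.23 to 0.22), H3C10 (-0.15 to 0.35), H3C2 (-0.020 to 0.81), H4C9 (-0.17 to 0.42) and H2BC4 (-0.0081 to 0.88). Where a replicate 3 library is left out, batch B holds 1 library, assumed to vary like the others. The cause of these changes was not tested. The batch covariate, limma-voom and the group term were not run for class sums, which have no fit. With the longest transcript in place of gene length, 8 of the 12 members named by level were still among the 3 highest of their class. Few counts limit most members: 37 of 61 could not be tested.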
